A study of Mus musculus with 10 samples.

Results

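The genes described here are the mouse genes whose symbol is Zfp followed by digits alone. Of 337 such symbols among 24421 genes, 120 reached at least 3 linear units in both libraries of control embryos, and these 120, chosen by their measured Ctrl level, were kept. Total RNA was sequenced in 10 libraries of 8-cell mouse embryos, all of BDF1 genotype and all freed of the zona pellucida and polar bodies. There were 5 groups of 2 libraries. In siTfap2c the transcription factor gene Tfap2c was knocked down, and in siKlf5 the transcription factor gene Klf5. In Arpc1bE_CdxE1_KO and CdxE2_KO, both labelled as knockouts of a Tfap2c motif, the names point to Arpc1b, which encodes an actin nucleation subunit, and Cdx2, which encodes a trophectoderm factor. Ctrl was the control. The positions of the deleted motifs, the number of embryos per library and the treatment that Ctrl received were not among the labels used here. The design text sets 8-cell expression with interference of Tfap2c against that without it.

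Most numbered Zfp genes encode proteins with C2H2 zinc fingers, loops held by a zinc ion between cysteines and histidines that read DNA bases, usually in tandem rows. Many of the proteins also carry a KRAB box, which recruits Trim28 (KAP1) and with it histone and DNA methylation, and this class is known for silencing retroelements and protecting imprints in early embryos. Others act as activators, and a few bind RNA or work in translation, so the symbol marks a protein fold rather than 1 pathway.

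Each value is log2(abundance + 1) of a gene in 1 library, here called log2 units, and a linear unit is the abundance itself. The kind of abundance was not named, so levels of different genes are not known to be per length, and with no read counts the depth is unknown. All differences are on the log2 scale, with the tested group minus the group it is set against, and a gene was called at an adjusted p under 0.05 by limma with Benjamini-Hochberg adjustment over all genes tested. The rule for the genes used the Ctrl level, so each difference from Ctrl is given as a description, with its call. The direct comparisons of siTfap2c with siKlf5 and of CdxE2_KO with Arpc1bE_CdxE1_KO use no Ctrl value in the difference, and their p-values are printed, though the Ctrl libraries help to estimate the spread behind them. With 2 libraries a group, not stated to be separate embryo pools, a p-value here covers no more than the difference between such libraries, which may be technical. In bulk embryos, fewer cells of a type and less RNA per cell cannot be told apart.

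The knockdowns reached their targets. Tfap2c stood at 3.94 and 4.09 log2 units in siTfap2c, against 6.61 in both Ctrl libraries. Klf5 stood at 5.32 and 5.45 in siTfap2c and 4.36 and 4.17 in siKlf5, against 7.20 and 7.13 in Ctrl. Arpc1b stood at 1.24 and 1.26 in siTfap2c and 3.27 and 3.30 in Arpc1bE_CdxE1_KO, against 4.71 and 4.48 in Ctrl. Cdx2 was called lower than Ctrl in all 4 other groups, at 0.23 and 0.57 in siTfap2c, 1.15 and 1.23 in siKlf5, 0.77 and 1.53 in Arpc1bE_CdxE1_KO and 0.82 and 0.93 in CdxE2_KO, against 2.35 and 2.48 in Ctrl. The linear values summed to 478651 to 498621 units in the motif knockout libraries, against 388454 to 395401 in the other 6. The median difference of all genes tested was 0.27 for Arpc1bE_CdxE1_KO and 0.29 for CdxE2_KO against Ctrl, and -0.05 and -0.04 once each library was centred on its own median. All 8 markers of 8-cell embryos were present, with sums of 975 to 1047 linear units in siTfap2c, 1170 to 1233 in siKlf5, 1456 to 1616 in Arpc1bE_CdxE1_KO, 1458 to 1488 in CdxE2_KO and 1383 to 1385 in Ctrl. The 10 markers of cumulus and granulosa cells summed to at most 1.02 linear units in any library, with 3 to 7 of them at 0 in both libraries of a group. Sums of the 3 blood markers were at most 0.0104, and those of the 3 sperm markers at most 0.784. The embryo markers did not all move alike. Klf17 stood at 7.92 and 7.63 log2 units in siTfap2c, against 6.54 and 6.79 in Ctrl, while all the others were lower in siTfap2c. Klf17 also lay above Ctrl in siKlf5 (7.20 and 7.18), Arpc1bE_CdxE1_KO (7.40 and 7.38) and CdxE2_KO (7.57 and 7.82). Nr5a2 and Carm1 lay below both Ctrl values in the libraries of every other group. Whether the lower embryo marker sums in siTfap2c bear on the values below was not tested.

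The 120 genes were present in every group, and 0 of them was listed at 0 in any library. Their summed abundance made up 0.868% and 0.833% of the linear sum in siTfap2c, 0.884% and 0.896% in siKlf5, 0.804% and 0.823% in Arpc1bE_CdxE1_KO, 0.844% in both CdxE2_KO libraries, and 0.884% and 0.879% in Ctrl. The shares were thus lowest in Arpc1bE_CdxE1_KO, and those of siTfap2c and CdxE2_KO also lay below both Ctrl shares. The genes were kept by their Ctrl level, which favours a high share in Ctrl. A lower share, or fewer of the 120 at the floor, in another group is therefore partly set by the rule. The floor held at 112 and 109 of the 120 in siTfap2c, 115 and 112 in siKlf5, 119 and 117 in Arpc1bE_CdxE1_KO, and 117 and 119 in CdxE2_KO. Counting every numbered Zfp symbol by name, 128 and 125 reached 3 linear units in siTfap2c, 130 and 129 in siKlf5, 149 and 147 in Arpc1bE_CdxE1_KO, 148 and 144 in CdxE2_KO, and 127 in both Ctrl libraries. Zfp617, Zfp839 and Zfp276 lay just inside the floor, with lower Ctrl values of 3.03, 3.07 and 3.11 linear units, and Zfp944, Zfp317 and Zfp65 just under it, at 3.00, 2.96 and 2.89.

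**Figure D1:**
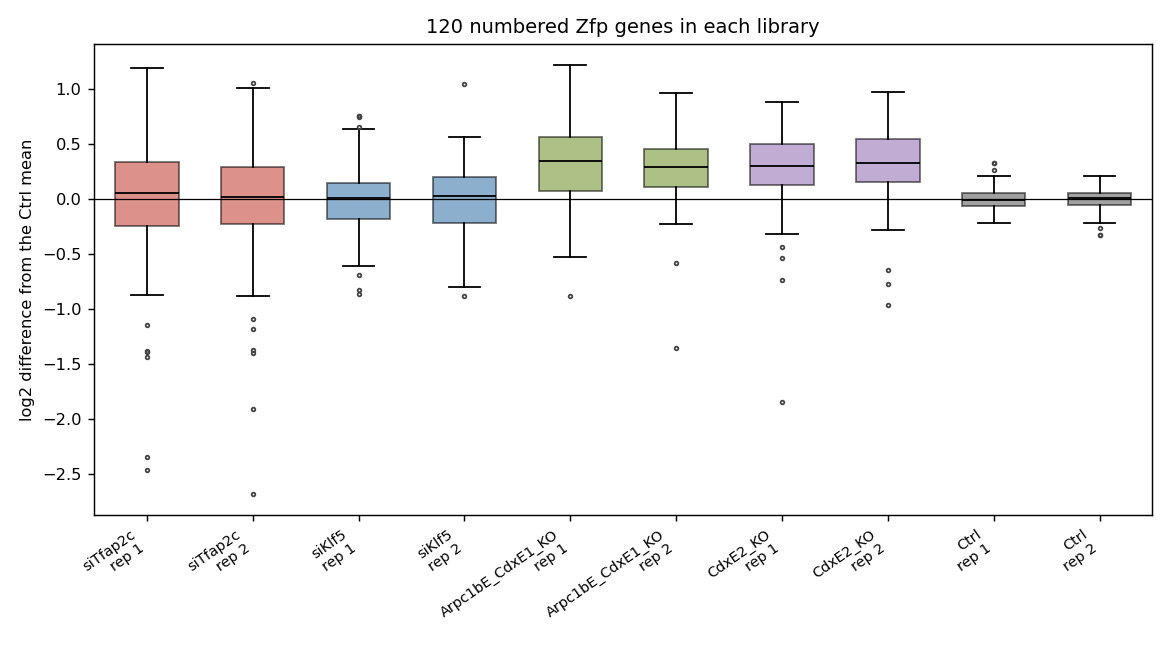
Difference of each of the 120 numbered Zfp genes from its own Ctrl mean (log2, vertical axis) in each of the 10 libraries (horizontal axis), coloured by group with Ctrl at the right. Boxes span the quartiles, the line is the median, and outlying genes are drawn as points. The knockout boxes lie above 0, and the siTfap2c libraries hold the lowest points, where Zfp109 averaged -2.51.

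The highest Ctrl levels belonged to Zfp568, Zfp106, Zfp644, Zfp706 and Zfp296. Zfp568, a KRAB protein known in mouse for repressing a placental Igf2 promoter, stood at 9.33 and 9.25 log2 units in siTfap2c, 9.50 in both siKlf5 libraries, 9.33 and 9.45 in Arpc1bE_CdxE1_KO, 9.39 and 9.30 in CdxE2_KO, and 9.43 and 9.42 in Ctrl. It was called in 0 of the 6 comparisons, with differences from Ctrl between -0.13 and 0.07. Between the replicates of a group, the median gap over the 120 genes was 0.09 log2 units in siTfap2c, 0.11 in siKlf5, 0.17 in Arpc1bE_CdxE1_KO, 0.11 in CdxE2_KO and 0.12 in Ctrl. The widest gap was 2.34 log2 units, for Zfp935 between the CdxE2_KO libraries.

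As to protein features, 119 of the 120 genes had a coding transcript in GENCODE M21, and Zfp939 is annotated as a transcribed pseudogene. A KRAB A-box pattern was found in 44 of the 119 (37.0%), against 111 of 212 (52.4%) of the numbered Zfp genes under the floor. The median number of C2H2 patterns was 9, with 12 in the genes with the KRAB pattern and 7 in those without it, and the range ran up to 36. The pattern was absent from 5 genes, among them Zfp36, whose fingers are of the CCCH kind. Chromosome 7 held 24 of the genes, chromosome 17 held 15 and chromosome 8 held 14, and 36 had another of the 120 within 250 kb. A stretch of at least 200 bases at 95% identity or more stood in another gene model for 38 of them. Some of these stretches lie in a gene that overlaps at the same locus, as Gemin7 does for Zfp296 and C030034L19Rik for Zfp704. On the opposite strand, 48 of the 120 overlapped a gene. The kit marks strand, but the strand setting used in counting is not given in the sources used here, so reads of such overlapping pairs may have been assigned to either gene.

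Against Ctrl, siTfap2c had some numbered Zfp genes much lower and others higher. Among called genes, the largest falls were those of Zfp109, Zfp947, Zfp758 and Zfp704, and the largest rises those of Zfp51, Zfp623, Zfp809 and Zfp462. In all, 43 of the 120 were called, 24 higher and 19 lower, where 24.6% of all 11195 genes tested were called (12.6% higher and 11.9% lower), and 29.9% of the 7141 genes that reach the same Ctrl floor. Their median difference was 0.04, and that of all genes was also 0.04. The count was 23 and 25 without siTfap2c replicate 1 and 2, and 26 and 24 without Ctrl replicate 1 and 2, and 19 of the 43 were called whichever library was left out. Here and below, leaving out a library leaves its group with 1 sample, which is assumed to vary like the other groups. Wherever the count of the 120 changed in such a fit, the share called among all genes changed in the same direction.

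Zfp109 stood at 0.82 and 0.48 log2 units in siTfap2c, 3.27 and 3.17 in siKlf5, 2.63 and 3.17 in Arpc1bE_CdxE1_KO, 2.84 and 2.39 in CdxE2_KO, and 3.05 and 3.27 in Ctrl. Both siTfap2c values lay far below every other library, with a difference of -2.51 from Ctrl (SE 0.22). Zfp947, a KRAB gene of chromosome 17, stood at 0.36 and 0.91 in siTfap2c, 2.52 in both siKlf5 libraries, 3.61 and 3.65 in Arpc1bE_CdxE1_KO, 3.66 and 3.44 in CdxE2_KO, and 3.15 and 2.50 in Ctrl. Its siTfap2c libraries were again the lowest pair, and the knockouts the highest. Zfp758, a KRAB gene further along the same chromosome, stood at 0.93 and 0.97 in siTfap2c, 2.35 and 2.67 in siKlf5, 2.88 and 2.97 in Arpc1bE_CdxE1_KO, 3.00 and 2.96 in CdxE2_KO, and 2.33 and 2.40 in Ctrl. The siTfap2c pair did not overlap any other group, and the difference from Ctrl was -1.42 (SE 0.13). Zfp110, also known as NRIF and first described as a partner of the neurotrophin receptor p75, stood at 2.94 and 2.91 in siTfap2c, 4.33 and 4.29 in siKlf5, 4.60 and 4.56 in Arpc1bE_CdxE1_KO, 4.16 and 4.42 in CdxE2_KO, and 4.15 and 4.03 in Ctrl. All 4 of these genes kept their siTfap2c call without any 1 library.

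Zfp704 differed in having intermediate siKlf5 values. It stood at 1.96 and 1.98 log2 units in siTfap2c, 2.98 and 2.65 in siKlf5, 3.30 and 3.18 in Arpc1bE_CdxE1_KO, 2.81 and 2.71 in CdxE2_KO, and 3.17 and 3.54 in Ctrl. Its difference of -1.38 in siTfap2c was kept without any 1 library. The value of -0.59 in CdxE2_KO, the only lower call there, was lost without each of the 4 libraries, and siKlf5 differed by -0.54 without a call. Zfp704 overlaps other gene models on the opposite strand.

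Among the rises, Zfp51, a KRAB gene with 19 C2H2 patterns, stood at 6.06 and 5.93 log2 units in siTfap2c, 5.16 and 5.31 in siKlf5, 5.66 and 5.67 in Arpc1bE_CdxE1_KO, 5.42 and 5.48 in CdxE2_KO, and 4.79 and 4.96 in Ctrl. Every other group lay above Ctrl, and siTfap2c above them all. The differences from Ctrl were 1.13 in siTfap2c, 0.36 in siKlf5, 0.79 in Arpc1bE_CdxE1_KO and 0.58 in CdxE2_KO, all called. The knockout calls were lost on centring, at adjusted p of 0.052 and 0.16 by limma, and the siKlf5 call was lost without any 1 library. A near-identical stretch of Zfp51 stands in Gm10226, so its reads may be shared. Zfp809, which silences retroviral DNA with Trim28 in mouse embryonic stem cells, stood at 5.31 and 5.35 in siTfap2c, 4.52 and 4.67 in siKlf5, 4.96 and 4.95 in Arpc1bE_CdxE1_KO, 4.87 and 5.07 in CdxE2_KO, and 4.23 and 4.45 in Ctrl. The siTfap2c difference of 0.99 (SE 0.11) was kept without any 1 library. Zfp623 stood at 3.32 and 3.15 in siTfap2c, 2.12 and 2.25 in siKlf5, 2.55 and 2.75 in Arpc1bE_CdxE1_KO, 2.58 and 2.71 in CdxE2_KO, and 2.1 and 2.24 in Ctrl, so that siKlf5 and Ctrl overlapped while siTfap2c lay above every other library.

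**Figure D2:**
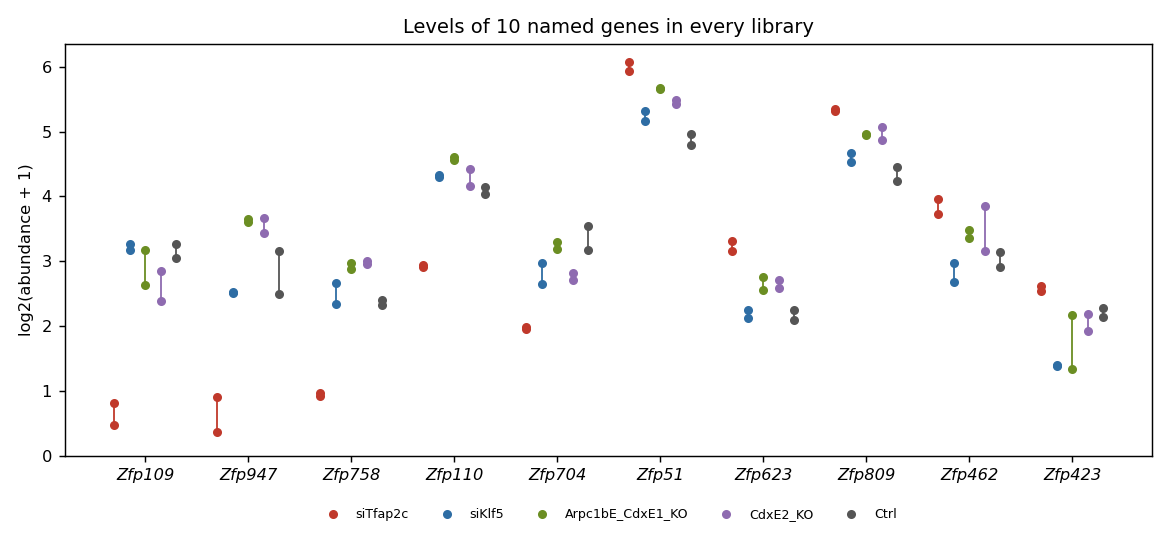
Level of 10 named genes (log2 of abundance + 1, vertical axis), with 1 point per library, a line joining the 2 libraries of a group, and Ctrl as the rightmost group of each gene. The genes are those with the largest called rises or falls in siTfap2c against Ctrl or against siKlf5. Zfp109, Zfp947 and Zfp758 stand under 1 log2 unit in both siTfap2c libraries and above 2 in all others.

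Zfp947 and Zfp758 belong to a run of 4 of these genes on chromosome 17, with gaps under 250 kb, in the order Zfp820, Zfp942, Zfp947 and Zfp758. On mm10 by GENCODE M21 they lie at 21816885 to 21845772, 21926960 to 21962464, 22144359 to 22166190 and 22361453 to 22377281, the first 3 on the minus strand and Zfp758 on the plus strand. In siTfap2c minus Ctrl the differences along the run were -0.05 for Zfp820, -0.69 for Zfp942, -2.19 for Zfp947 and -1.42 for Zfp758, and the last 3 were called. Against siKlf5 they were -0.31 for Zfp820, which was not called, then -0.68, -1.88 and -1.56, which were. In the knockouts all 4 differences from Ctrl were above 0, at 0.45 to 0.80 in Arpc1bE_CdxE1_KO and 0.37 to 0.73 in CdxE2_KO.

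The promoter windows of this run and of Zfp109 (chromosome 7, 24227572 to 24237560, minus strand) are shown because Zfp109, Zfp947 and Zfp758 had the 3 largest falls in siTfap2c, with Zfp942 and Zfp820 as the neighbours in the run. Each window runs from 250 bases before to 50 bases after the RefSeq start, 5′ to 3′ in the direction of the gene, on GRCm38.p6. Capitals mark a match to an AP-2 type palindrome, the kind of site that Tfap2 proteins bind, searched as GCCNNNGGC or GCCNNNNGGC, which reads the same on both strands.
Zfp109 (chr7:24237549-24237848, minus strand): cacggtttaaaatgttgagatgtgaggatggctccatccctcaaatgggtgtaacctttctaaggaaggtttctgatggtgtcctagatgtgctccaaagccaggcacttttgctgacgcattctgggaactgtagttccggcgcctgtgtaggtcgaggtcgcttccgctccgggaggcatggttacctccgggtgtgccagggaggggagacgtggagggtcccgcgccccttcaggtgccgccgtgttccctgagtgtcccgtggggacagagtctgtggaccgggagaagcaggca
Zfp820 (chr17:21845710-21846009, minus strand): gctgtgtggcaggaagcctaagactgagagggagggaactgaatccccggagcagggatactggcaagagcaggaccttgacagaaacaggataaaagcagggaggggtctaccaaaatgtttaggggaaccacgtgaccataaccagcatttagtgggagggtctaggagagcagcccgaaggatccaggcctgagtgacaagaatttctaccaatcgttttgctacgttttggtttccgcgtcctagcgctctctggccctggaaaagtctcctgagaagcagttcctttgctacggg
Zfp942 (chr17:21962415-21962714, minus strand): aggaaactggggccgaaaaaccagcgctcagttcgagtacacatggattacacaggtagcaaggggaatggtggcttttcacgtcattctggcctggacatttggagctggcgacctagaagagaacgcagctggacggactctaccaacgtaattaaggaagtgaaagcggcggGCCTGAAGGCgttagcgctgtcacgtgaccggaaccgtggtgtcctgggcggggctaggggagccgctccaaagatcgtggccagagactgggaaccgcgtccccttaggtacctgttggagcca
Zfp947 (chr17:22165928-22166227, minus strand): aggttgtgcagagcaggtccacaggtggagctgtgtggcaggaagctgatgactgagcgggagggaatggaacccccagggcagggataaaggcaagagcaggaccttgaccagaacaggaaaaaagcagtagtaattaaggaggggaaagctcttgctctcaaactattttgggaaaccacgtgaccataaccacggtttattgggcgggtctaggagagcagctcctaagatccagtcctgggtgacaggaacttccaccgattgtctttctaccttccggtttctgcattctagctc
Zfp758 (chr17:22361213-22361512, plus strand): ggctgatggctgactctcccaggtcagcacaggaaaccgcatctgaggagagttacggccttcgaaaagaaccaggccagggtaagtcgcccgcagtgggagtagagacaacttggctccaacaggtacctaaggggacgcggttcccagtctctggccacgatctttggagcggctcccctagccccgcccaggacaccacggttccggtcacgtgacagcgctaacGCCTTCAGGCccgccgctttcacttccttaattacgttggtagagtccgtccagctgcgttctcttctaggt

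The windows of Zfp942 and Zfp758 hold the same DNA in opposite orientation. A run of 187 bases is identical, base for base, between the Zfp942 window and the reverse complement of the Zfp758 window, and it reaches the gene-ward end of both. The palindrome in each window is therefore 1 shared sequence, GCCTGAAGGC at position -75 of Zfp942 and its complement GCCTTCAGGC at position -22 of Zfp758, counted from the start site. The Zfp820 and Zfp947 windows are also alike in the same orientation, with 204 identical bases in 269 aligned columns, and neither holds the palindrome. The Zfp109 window holds none either, and its longest run shared with any of the other 4 windows, on either strand, was 10 bases.

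The palindrome is common. It stood in 42 of the 97 numbered Zfp genes at the floor that have a RefSeq window (43.3%), against 7995 of 27025 genes with one (29.6%), and the windows of the 97 were richer in G and C, with a median of 56.3% against 52.8%. By outcome in siTfap2c minus Ctrl, it stood in 9 of 16 genes called lower, 7 of 17 called higher and 26 of 64 not called. Against siKlf5 it stood in 7 of 17 called lower, 7 of 13 called higher and 28 of 67 not called. These are matches of letters in a window and not binding sites.

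In the Klf5 knockdown the called differences were fewer and smaller. Against Ctrl, 15 of the 120 were called, 8 higher and 7 lower, where 7.52% of all genes tested were called (2.25% higher and 5.27% lower), and 10.1% of those at the same floor, and the medians were 0.04 and -0.02. Centred, the split was 9 higher and 4 lower, where 7.32% of all genes were called. None of the 15 calls held without each library in turn, as the count was 3 and 1 without siKlf5 replicate 1 and 2, and 1 and 2 without Ctrl replicate 1 and 2. Among called genes whose libraries did not overlap those of Ctrl, Zfp395, Zfp791, Zfp12 and Zfp296 had the largest falls, and Zfp367, Zfp800, Zfp239 and Zfp950 the largest rises.

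These 4 siKlf5 falls are set beside the siTfap2c values, which share the Ctrl libraries. Zfp395 stood at 1.43 and 1.72 log2 units in siTfap2c, 1.95 and 2.01 in siKlf5, and 2.82 and 2.81 in Ctrl, with differences of -1.24 and -0.83 for the knockdowns. Zfp791 differed by -0.74 in siTfap2c and -0.79 in siKlf5, and Zfp12 by -0.73 and -0.56. Zfp296, expressed in pluripotent cells and active at heterochromatin, stood at 5.99 and 6.0 in siTfap2c, 6.37 and 6.23 in siKlf5, 6.80 and 6.85 in Arpc1bE_CdxE1_KO, 6.90 and 6.99 in CdxE2_KO, and 6.76 and 6.96 in Ctrl. Its knockdown pairs lay below all 6 other libraries, and siTfap2c below siKlf5. Zfp296 overlaps Gemin7 on the opposite strand. Among the rises, Zfp367 stood at 3.97 and 3.91 in siTfap2c, 3.95 and 4.24 in siKlf5, and 3.13 and 3.25 in Ctrl, while Zfp239 and Zfp950 differed from Ctrl by 0.64 and 0.61 in siKlf5 and by 0.09 and -0.42 in siTfap2c, where neither was called.

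The direct difference between the knockdowns uses no Ctrl mean, but the Ctrl libraries enter the pooled spread. Of the 120, 41 differed between siTfap2c and siKlf5, 19 higher and 22 lower in siTfap2c, where 25.6% of all 11195 genes differed (15.1% higher and 10.5% lower), and 32.0% of the 7141 genes that reach the same floor. The medians were 0.07 for the 120 and 0.05 for all genes. With the libraries of these 2 groups alone, 46 were called, 22 higher and 24 lower, where 32.4% of all genes were. The count was 23 and 27 without siTfap2c replicate 1 and 2, and 25 and 29 without siKlf5 replicate 1 and 2, and 18 of the 41 were called whichever library was left out.

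Among called genes, the 4 largest falls in this comparison were those of Zfp109 (log2 difference -2.57, limma adjusted p = 5.4e-05), Zfp947 (-1.88, adjusted p = 0.00043), Zfp758 (-1.56, adjusted p = 6.2e-05) and Zfp110 (-1.38, adjusted p = 3e-05). The 4 largest rises were those of Zfp423 (1.19, adjusted p = 0.0059), Zfp623 (1.05, adjusted p = 0.00049), Zfp462 (1.01, adjusted p = 0.0071) and Zfp51 (0.76, adjusted p = 0.00041). All but Zfp462 stayed called whichever library was left out, and Zfp462, a factor that restrains differentiation genes in embryonic stem cells, lost it without 2 of the 4. Zfp423, a partner of SMAD proteins in BMP signalling, stood at 2.62 and 2.54 log2 units in siTfap2c and 1.38 and 1.41 in siKlf5. The Ctrl values of 2.28 and 2.14 lay between the pairs, and neither knockdown differed from Ctrl with a call, at 0.37 for siTfap2c and -0.81 for siKlf5.

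Several well expressed genes fell in siTfap2c relative to siKlf5 with small errors. Zfp706, a small single-finger protein, stood at 6.65 and 6.68 log2 units in siTfap2c and 7.19 in both siKlf5 libraries (difference -0.53, SE 0.07, limma adjusted p = 0.00054). Zfp106, an RNA-binding protein needed in mouse motor neurons, stood at 8.34 and 8.29 in siTfap2c and 8.77 and 8.79 in siKlf5 (-0.46, SE 0.07, adjusted p = 0.0014). The pairs did not overlap in either gene, and both calls were kept without any 1 library. Zfp950 differed by -1.03 (limma adjusted p = 0.0014), but against Ctrl it was called higher in siKlf5 and not called in siTfap2c. Zfp36, which stood near the floor in siTfap2c, differed by -0.84 (adjusted p = 0.0033). Zfp644, a partner of the H3K9 methyltransferases G9a and GLP, differed by -0.55 (adjusted p = 0.015), a call lost without 2 of the 4 libraries. Zfp706 and Zfp106 overlap genes on the opposite strand.

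**Figure D3:**
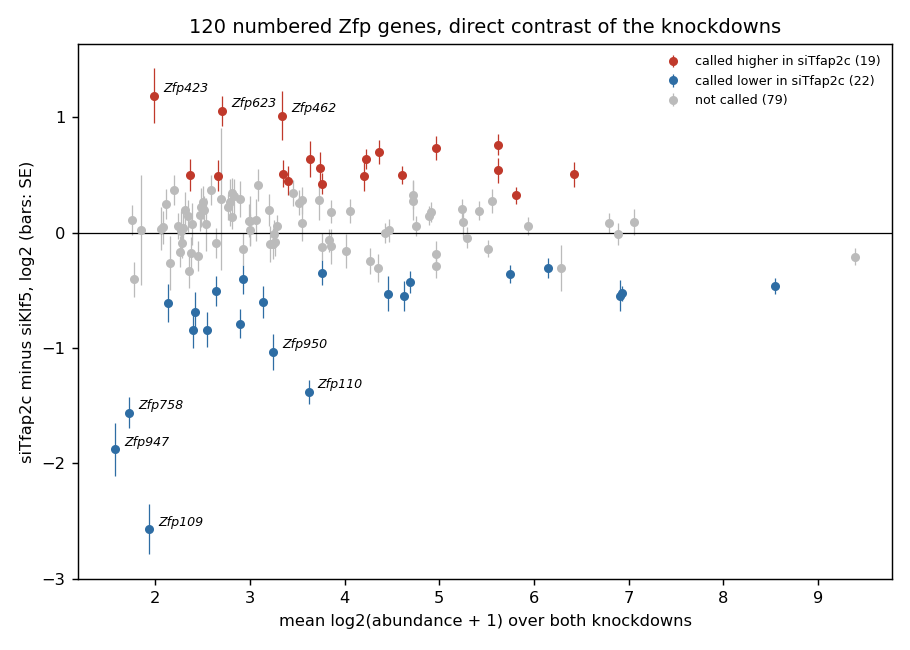
Difference between siTfap2c and siKlf5 (log2, vertical axis, bars are the SE) against the mean level over both knockdowns (log2 of abundance + 1, horizontal axis) for the 120 genes. Red marks the 19 called higher in siTfap2c, blue the 22 called lower and grey the 79 not called. Zfp109, Zfp947, Zfp758 and Zfp110 lie at -2.57 to -1.38, and the other called genes lie nearer to 0.

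Neighbours shared a direction at 2 places where a gene rose. Zfp623 and Zfp707 lie side by side on chromosome 15 (75940952 to 75949400 and 75969123 to 75975868), and differed by 1.05 and 0.64 between siTfap2c and siKlf5, both called. On chromosome 9, Zfp809 (22225714 to 22243354) and Zfp599 (22247430 to 22259895) differed by 0.73 and 0.54, both called. On chromosome 7 the neighbours of Zfp109 and Zfp110 had differences of the same sign that were not called, and the gap between neighbours was not tested. Zfp109 differed by -2.57 and Zfp180, within 250 kb of it, by -0.31 without a call, and Zfp110 differed by -1.38 and its neighbour Zfp329 by -0.09 without a call. Other neighbours went opposite ways. On chromosome 6, Zfp212 differed by 0.50 with a call, and Zfp777 by -0.25 without one. On chromosome 7, Zfp715 differed by -0.79 with a call, and Zfp936 by 0.09 without one. Among 16 such runs of neighbours, those described were chosen after their values were seen.

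Against Ctrl the motif knockouts had many rises and hardly any fall among the numbered Zfp genes, as they had among all genes. In Arpc1bE_CdxE1_KO 35 of the 120 were called, all 35 higher, where 24% of all 10920 genes tested were called (23.2% higher and 0.815% lower), and 31.0% of those at the same floor, and the medians were 0.29 for the 120 and 0.27 for all genes. In CdxE2_KO 45 were called, 44 higher and 1 lower, where 29.9% of all genes were called (28.5% higher and 1.44% lower), and 37.2% of those at the same floor, and the medians were 0.31 and 0.29. When each library was centred on its median, 2 of the 120 were called in Arpc1bE_CdxE1_KO, 1 higher and 1 lower, and 7 in CdxE2_KO, 1 higher and 6 lower, where 2.94% and 6.24% of all genes were called, and the medians were -0.03 and -0.02. Only 1 of the 35 and 2 of the 45 calls were also made after centring. In the fits without 1 library, given next, the share called among all genes changed in the same direction as the count. Those changes are thus not particular to the numbered Zfp genes. Without Arpc1bE_CdxE1_KO replicate 1 and 2 the count in that group was 24 and 41. Without Ctrl replicate 1 and 2 it was 4 and 1 in Arpc1bE_CdxE1_KO and 7 and 5 in CdxE2_KO, and without CdxE2_KO replicate 1 and 2 it was 10 and 3. Whichever library was left out, 1 of the 35 and 2 of the 45 stayed called.

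Zfp451, a SUMO ligase, held its CdxE2_KO call after centring and whichever library was left out. It stood at 4.98 and 5.14 log2 units in Arpc1bE_CdxE1_KO, 5.33 and 5.43 in CdxE2_KO, and 4.45 and 4.47 in Ctrl. Both knockout pairs lay above Ctrl, and CdxE2_KO was higher by 0.92 (SE 0.10), or by 0.59 when centred, still called. Zfp345, a KRAB gene with a near-identical stretch in Gm14124, stood at 4.08 and 3.83 in Arpc1bE_CdxE1_KO, 3.22 and 3.57 in CdxE2_KO, and 2.90 and 2.83 in Ctrl, a difference of 1.09 in Arpc1bE_CdxE1_KO that was 0.77 when centred, still called, and was lost without 2 of the 4 libraries. Zfp958 differed by 0.86 in Arpc1bE_CdxE1_KO, and Zfp97, Zfp871 and Zfp800 by 0.86, 0.85 and 0.85 in CdxE2_KO, and all 4 of these lost their call when centred. Zfp97 shares a near-identical stretch with its neighbour Zfp960, so its own share of the reads is uncertain.

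By feature, 20 of the 44 genes with the KRAB pattern were called higher in Arpc1bE_CdxE1_KO minus Ctrl, against 15 of the 75 coding genes without it, with medians of 0.42 and 0.24. There 23.2% of all genes were called higher, and 30.0% of those at the same floor. In CdxE2_KO it was 18 of 44 called higher, against 26 of 75, with medians of 0.41 and 0.28. Here 28.5% of all genes were called higher, and 35.3% of those at the same floor. Centred, the medians were 0.10 against -0.08 in Arpc1bE_CdxE1_KO and 0.08 against -0.05 in CdxE2_KO. Of the 44 KRAB genes 1 was then called higher in Arpc1bE_CdxE1_KO, and 0 higher and 3 lower in CdxE2_KO. The shares of all genes called after centring were 2.94% and 6.24%. In the knockdowns the medians lay closer, at 0.04 against 0.06 in siTfap2c minus Ctrl and 0.08 against -0.0042 in siKlf5 minus Ctrl. The 15 genes of chromosome 17 had medians of 0.56 in Arpc1bE_CdxE1_KO and 0.61 in CdxE2_KO, with 7 and 10 of them called higher, where 23.2% and 28.5% of all genes were. Centred, their medians were 0.24 and 0.28, and 0 of the 15 were called in either knockout. Most of these 15 carry the KRAB pattern, so this split overlaps the KRAB split. The 24 genes of chromosome 7 went the other way, with medians of 0.21 and 0.20 and 6 and 4 of them called higher. Centred, their medians were -0.11 and -0.13, with 0 called higher and 1 and 3 lower. None of these splits was tested.

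**Figure D4:**
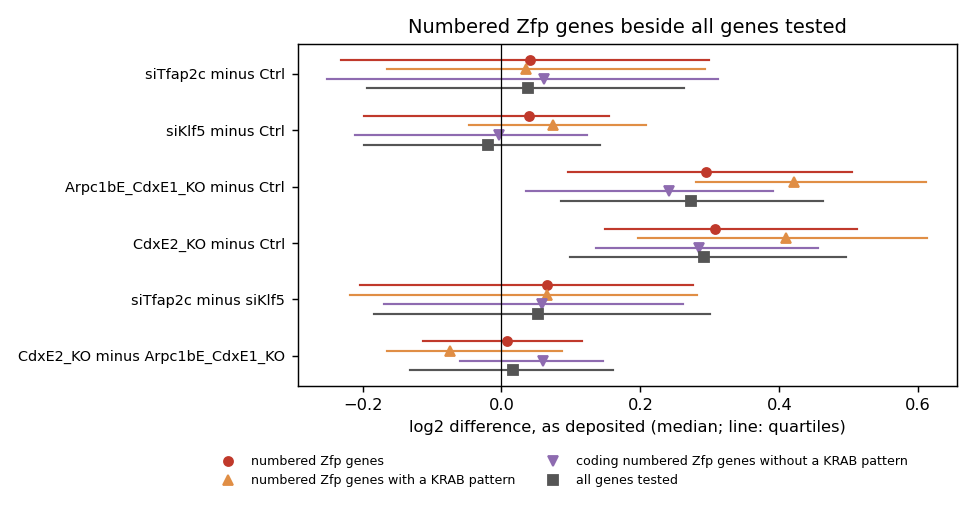
Median difference (log2 as deposited, horizontal axis) in each of the 6 comparisons (rows), with lines from the lower to the upper quartile, for the 120 numbered Zfp genes, those with the KRAB pattern, the coding ones without it, and all genes tested. In Arpc1bE_CdxE1_KO minus Ctrl the KRAB genes stand at 0.42 and the others at 0.24, beside 0.27 for all genes.

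Between the knockouts no numbered Zfp gene was called with all libraries in. Of the 120, 0 were called in CdxE2_KO minus Arpc1bE_CdxE1_KO by limma, where 0.0458% of all genes were called, and 15 had an unadjusted p under 0.05, against 1238 of all 10920 genes. Every difference of the 120 lay between -0.63 and 0.56, and the median was 0.01. Zfp655, at 5.97 and 6.01 log2 units in CdxE2_KO and 5.61 and 5.25 in Arpc1bE_CdxE1_KO, had the largest positive difference of 0.56 (SE 0.13, adjusted p = 0.30). Without Arpc1bE_CdxE1_KO replicate 2, 1 gene was called, Zfp600, whose Arpc1bE_CdxE1_KO libraries were 1.97 log2 units apart, the widest gap in that group. Zfp600 was named after its values were seen.

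Of 42 numbered Zfp genes with a listed role, 33 reached the floor, and Zfp352, Zfp521, Zfp687, Zfp703, Zfp708, Zfp30, Zfp326, Zfp277 and Zfp365 did not. Against Ctrl, 8 of the 33 were called higher and 6 lower in siTfap2c, 2 higher and 1 lower in siKlf5, 10 higher and 0 lower in Arpc1bE_CdxE1_KO, and 15 higher and 0 lower in CdxE2_KO, where 24.6%, 7.52%, 24% and 29.9% of all genes were called. Between siTfap2c and siKlf5 the counts were 7 and 6, beside 25.6% of all genes. Centred, 0 of the 33 were called in Arpc1bE_CdxE1_KO, and 0 higher and 1 lower in CdxE2_KO.

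In the pluripotency and imprinting group, Zfp42 (Rex1), a marker of naive pluripotent cells, stood at 3.59 and 3.81 log2 units in siTfap2c, 3.86 and 3.79 in siKlf5, 4.50 and 4.27 in Arpc1bE_CdxE1_KO, 3.96 and 4.10 in CdxE2_KO, and 4.14 and 4.07 in Ctrl. The difference of -0.40 in siTfap2c was called, but the call was lost without 3 of the 4 libraries, and against siKlf5 the difference was -0.12 (adjusted p = 0.48). The 3 genes with profiles most like that of Zfp42 over the 5 group means were Dus4l, Hist1h4d and Mir669o, with Pearson's r of 0.997, 0.997 and 0.994 as a description. They were the top of all 11195 genes tested, and over 5 points such a search yields an r near 1 by itself. Dus4l and Mir669o had low group means, of 1.14 to 1.75 and 0 to 1.47 log2 units. Zfp57, a KRAB protein that keeps methylation at imprinted regions, stood at 3.69 and 3.53 in siTfap2c, 3.05 and 3.15 in siKlf5, 4.05 and 3.82 in Arpc1bE_CdxE1_KO, 3.89 and 3.98 in CdxE2_KO, and 3.25 and 3.39 in Ctrl. The siTfap2c pair lay above siKlf5 by 0.51 (SE 0.12, limma adjusted p = 0.011), a call lost without 2 of the 4 libraries. Zfp445, its partner at imprints, stood at 5.57 and 5.45 in siTfap2c and 5.28 and 5.26 in Ctrl, a difference of 0.24 that was not called. Zfp281, a regulator of the exit from naive pluripotency, stood at 4.86 and 4.85 in siTfap2c and 4.32 and 4.40 in siKlf5, a difference of 0.50 (adjusted p = 0.0020) kept without any 1 library.

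Among transcription regulators, Zfp592 stood at 4.81 and 4.60 log2 units in siTfap2c and 4.0 and 4.01 in siKlf5, a difference of 0.70 (limma adjusted p = 0.0014) kept without any 1 library. Zfp219 differed between them by -0.51 and Zfp131 by 0.32, and both lost the call without 3 of the 4 libraries. Zfp217, Zfp148 and Zfp384 were called in 0 of the 6 comparisons, with differences from -0.31 to 0.28. Zfp143, which binds promoters of housekeeping and small nuclear RNA genes, was called in the knockouts alone, by 0.42 in Arpc1bE_CdxE1_KO and 0.50 in CdxE2_KO, and 0.10 and 0.17 when centred, without a call. Zfp410, known as the activator of Chd4, differed from Ctrl by 0.33 in siTfap2c and 0.39 in CdxE2_KO, both called and both lost without each single library.

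Of the members that work on RNA, ribosomes or proteins, Zfp36 (tristetraprolin), which destabilises mRNAs with AU-rich elements, stood at 2.26 and 1.99 log2 units in siTfap2c, 3.04 and 2.90 in siKlf5, 3.19 and 3.37 in Arpc1bE_CdxE1_KO, 3.20 and 3.36 in CdxE2_KO, and 2.69 and 2.99 in Ctrl. The siTfap2c pair was the lowest and did not overlap another group. Zfp598, the ubiquitin ligase that marks collided ribosomes, Zfp593, which in yeast acts in export of the large ribosomal subunit, and Zfp346, which binds double-stranded RNA, were called in 0 of the 6 comparisons. Zfp622, a factor of the large ribosomal subunit, was called in CdxE2_KO minus Ctrl alone, by 0.50, and not when centred. Zfp207 (BuGZ), a spindle and kinetochore protein, was called in Arpc1bE_CdxE1_KO alone, by 0.44, and not when centred. Zfp91, a ubiquitin ligase, stood at 5.57 in both siTfap2c libraries and 5.97 and 5.89 in siKlf5, a difference of -0.36 (adjusted p = 0.0072) lost without 1 of the 4 libraries.

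**Figure D5:**
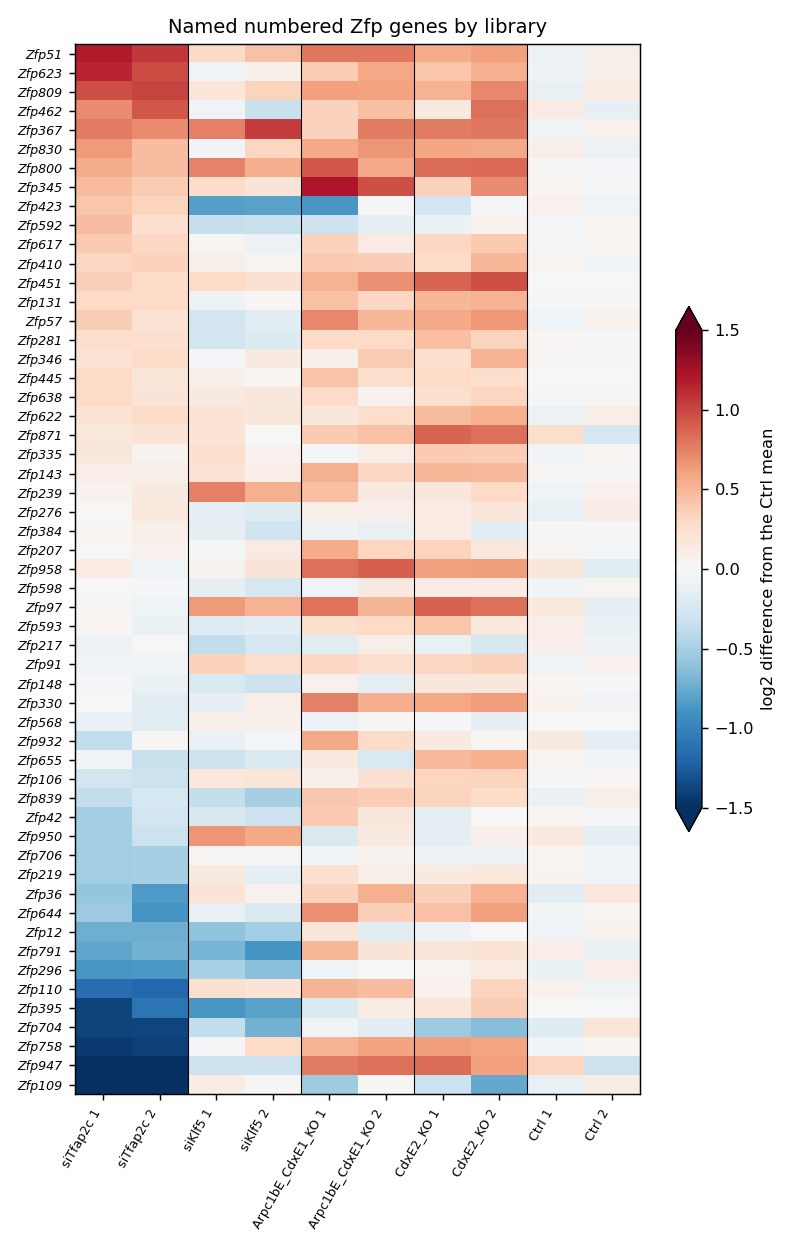
Difference from the Ctrl mean (log2, colour, red above and blue below 0, saturated at the ends of the scale) of the named numbered Zfp genes (rows, ordered by their siTfap2c mean) in each of the 10 libraries (columns). Rows run down to Zfp109 at -2.51 in siTfap2c, and the knockout columns are mostly above 0.

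KRAB zinc finger proteins act through a shared set of corepressors, and 29 genes of that list were tested. In siTfap2c minus Ctrl 7 were called higher and 5 lower, with a median of 0.11, and between siTfap2c and siKlf5 the counts were 6 and 4, where 24.6% and 25.6% of all genes were called. The 6 genes named next had the lowest p of the list in siTfap2c minus Ctrl. Their differences there are thus a description, and the comparison with siKlf5 shares the siTfap2c libraries. Trim28 binds the KRAB box. Its level was 6.77 and 6.73 log2 units in siTfap2c, 7.47 and 7.36 in siKlf5, and 7.47 and 7.39 in Ctrl. Trim28 was lower by 0.68 than Ctrl, with a call, and by 0.67 than siKlf5 (limma adjusted p = 0.0014). Dnmt3b, a de novo DNA methyltransferase, stood at 1.69 and 1.85 in siTfap2c, 2.77 and 2.70 in siKlf5, and 3.44 and 3.49 in Ctrl, so that both knockdowns lay below Ctrl and siTfap2c below siKlf5. Hdac2, a histone deacetylase, differed from Ctrl by -0.91 and Dppa3, which protects maternal DNA methylation, by -0.74 in siTfap2c, both kept without any 1 library. Cbx1, which encodes HP1 beta, rose by 0.57 in siTfap2c and by 0.51 in siKlf5. Pphln1, a subunit of the HUSH complex, rose by 0.40 in siTfap2c, 0.32 in siKlf5 and, as deposited, 0.33 in both knockouts, all called, and the knockout calls were lost on centring. The siKlf5 calls of Dnmt3b and Cbx1 were lost without 4 and 3 of the 4 libraries. Those of Pphln1 were lost without 2 of the 4 in siTfap2c, 4 in siKlf5, 3 in Arpc1bE_CdxE1_KO and 4 in CdxE2_KO.

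Related zinc finger families are given by their counts. They were taken by name among the genes tested, without the Ctrl floor that the 120 had to reach. In siTfap2c minus Ctrl, 2 of 17 Zfp genes with a number and a letter were called higher and 6 lower, 7 of 31 Zbtb genes were called higher and 4 lower, 2 of 6 Zkscan genes higher and 0 lower, and 1 of 9 Zscan genes each way, where 12.6% of all genes were called higher and 11.9% lower. In Arpc1bE_CdxE1_KO minus Ctrl the medians were 0.55 for the number and letter genes, 0.21 for Zbtb, 0.08 for Zkscan and 0.43 for Zscan. Beside them stood 0.29 for the 120 numbered genes, 0.33 for numbered Zfp genes taken by name alone and 0.27 for all genes. Centred, the medians of the related families were 0.23, -0.11, -0.24 and 0.11 in the same order, and that of numbered Zfp genes by name alone was 0.0059.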

How the data were processed

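The deposited tables hold log2 values of gene abundance, and exact zeros put the added constant at 1. They cover 24421 genes in 3 tables, with Ctrl only in that of the motif knockouts. Per the submitters' processing notes, HISAT2 2.1.0, SAMtools 1.7, StringTie 1.3.4 and Cufflinks were used with mm10. Per the labels' protocols, random-primed libraries were made with a stranded total RNA kit and depleted of ribosomal cDNA after amplification. The counting step is not given in the sources used here.

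The numbered Zfp genes and all gene lists were chosen with earlier results of these data known. Genes that reached 1 linear unit in 2 or more libraries entered limma 3.58.1 (R 4.3.3), with moderated variances following a trend: the knockdowns on all 10 libraries across tables, which may have been scaled apart, and the knockouts on the 6 libraries of their table. An added constant understates changes of low genes. Named genes are the 4 targets, a role list, the 5 highest in Ctrl and those at the floor's edge. Also named are up to 4 called rises and 4 called falls without overlap per comparison. The 6 named corepressors are those of the list with the lowest p in siTfap2c minus Ctrl. Protein patterns came from translated GENCODE M21 coding transcripts, and promoter windows from RefSeq (GRCm38.p6), where 97 of the 120 genes matched.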

Additional observations from a re-analysis of the deposited data

How the results depend on the processing

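Numbers of the 120 genes called, and their median differences, kept within 1.5 times, or within the spread between libraries, under the alternatives not listed here. Raising the control floor to 10 linear units left 53 genes. Of these, 18 were called in siTfap2c, 7 in siKlf5, 15 in Arpc1bE_CdxE1_KO and 21 in CdxE2_KO, each against Ctrl. Between siTfap2c and siKlf5, 20 of them were called. The shares of all genes stayed as given above, since the fits were the same. The medians were then 0.0068, 0.0523, 0.22, 0.276 and, between the knockouts, 0.0735. Without the filter on low values 5, 16 and 22 of the 120 were called in siKlf5, Arpc1bE_CdxE1_KO and CdxE2_KO. The shares of all genes were then 2.34%, 5.61% and 8.95%. Without the trend 9 were called in siKlf5, where 5.45% of all genes were. Centring left 2 and 7 in the knockouts and gave medians of 0.0918 in siKlf5, -0.0267 and -0.0237 in the knockouts and -0.0042 between siTfap2c and siKlf5. A constant of 0.1 gave medians of 0.0453 in siKlf5, 0.338 in CdxE2_KO and 0.0786 between the knockdowns. Choosing genes by a mean of 3 linear units over all libraries gave 0.0695, 0.0521, 0.369 and 0.328 against Ctrl. By name alone the siKlf5 median was 0.0020. For the fits without 1 library, given next, the share called among all genes moved in the same direction wherever the count changed. Leaving out 1 library gave 23 to 26 calls (medians 0.018 to 0.0571) in siTfap2c, 1 to 3 (0.0121 to 0.0237) in siKlf5, 1 to 41 (0.288 to 0.35) in Arpc1bE_CdxE1_KO, 3 to 10 (0.299 to 0.324) in CdxE2_KO, 23 to 29 (0.0459 to 0.0718) between the knockdowns, and 0 to 1 (-0.005 to 0.0408) between the knockouts. In CdxE2_KO, centring turned the called differences of Zfp91 to -0.0065 and of the corepressor gene Pphln1 to -0.0016. Where not stated, the cause was not tested.

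Replicate numbers did not pair the libraries: same-numbered deviations correlated between -0.05 and 0.04 over 10 group pairs. With the replicate number as a block, 40, 9, 38 and 46 genes were called against Ctrl in siTfap2c, siKlf5, Arpc1bE_CdxE1_KO and CdxE2_KO. Between the knockdowns 40 were called, and between the knockouts 0. In the same order, 23.4%, 6.31%, 22.7%, 28.3%, 24.4% and 0.0366% of all genes were called. Depth is unknown, so counting error could not be set beside any value.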
